A study of Mus musculus with 4 samples.

Results

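Epithelial genes were followed in RNA of endothelial cells sorted from mouse pancreatic tumours, as a set of 34 genes out of 55367 gene names in the count table. The members were named keratins, junction proteins, transcription and splicing factors, surface proteins and secreted ductal proteins, and some of them were picked because they lay higher with anti-CD93 in these same libraries. The comparison of the treatments is therefore a description of these genes and carries no test. The tumours were grown from KPC cells, a mouse pancreatic cancer line, injected under the skin of C57BL/6 mice. Mice received either control rat IgG (2 libraries) or an antibody against CD93, an endothelial surface receptor (2 libraries), and cells were taken 48 hours later. All 4 libraries came from cells that carried CD31 and lacked CD45. The tumours grew outside the pancreas, and the labels do not say whether the 2 libraries of a group came from separate or pooled mice, so any spread is that between libraries.

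Epithelial cells are joined by E-cadherin, claudins and desmosomes and are braced inside by keratin filaments built from pairs of a type I and a type II chain. In the pancreas this programme marks the ducts and the tumours that resemble them, whereas endothelial cells use VE-cadherin and claudin-5 for their junctions. Repressors of the Zeb and Snail families silence epithelial genes by binding short E-box letters near their start sites. The splicing factors Esrp1 and Esrp2 and the factor Grhl2 maintain the epithelial state. Clu, Sox9, Spint2 and Prom1 are also made by cells other than epithelium.

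The libraries held 9364294 to 17813993 assigned reads, and each mate of a pair was counted on its own. Control IgG replicate 2 stood apart. Its log2 CPM (read counts scaled to equal depth) correlated with the other libraries at 0.945 to 0.947 across genes, which are not independent replicates. Olfactory and vomeronasal receptor genes, which this tissue is not known to read, took 359.6 CPM of all reads in it and 52.0 to 56.6 CPM in the other libraries. Pecam1, which encodes CD31, was at 842 to 985 TPM (a transcript level scaled for gene length and depth), and Ptprc, which encodes CD45, was at 0.410 to 0.876 TPM. The labelled cell type was therefore present by its marker. In bulk RNA, fewer cells of a type and less RNA per cell cannot be told apart.

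The epithelial genes were not uniformly present. By level per length, 18 members had a mean over 10 TPM, 9 lay between 1 and 10, and 7 lay under 1. Krt8, a type II keratin of simple epithelia, was the highest at 1282 TPM on average, above 99.9% of all genes with reads. Its type I partner Krt18 followed at 1097 TPM, the secreted chaperone Clu at 812 TPM and the ductal keratin Krt19 at 618 TPM. The mean of Pecam1 was 888 TPM, so Krt8 and Krt18 exceeded the sort marker. In the next tier were the secreted scavenger protein Dmbt1 at 215 TPM, the galectin Lgals4 at 195 TPM, Cdh1, which encodes E-cadherin, at 187 TPM and the epithelial ETS factor Elf3 at 121 TPM. Neighbours in this order often crossed between libraries: Lgals4 ran from 148 to 265 TPM and Cdh1 from 150 to 242 TPM, so these 2 levels overlapped.

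At the other end, 7 members were near the floor and did not pass the count filter. These were Grhl2, Esrp1 and Ovol1, which encode regulators of the epithelial state, Rab25 and Ap1m2, which encode epithelial trafficking proteins, the transport protein gene Mal2 and the protease inhibitor gene Spint1. Grhl2 had 0 reads in control IgG replicate 1, 18 in control IgG replicate 2, and 5 and 4 in the anti-CD93 libraries. Esrp1 had 0, 10, 4 and 4 reads in the same order, Rab25 had 0, 6, 3 and 0, and Ap1m2 had 0, 9, 0 and 2. All 4 of these were highest in control IgG replicate 2, the library with many reads on receptor genes. There Grhl2 and Esrp1 were at 0.224 and 0.170 RPKM (reads per kilobase at equal depth), under the 0.267 that 95% of the receptor genes did not exceed in that library. Rab25, Ap1m2 and Spint1 were slightly above that value, at 0.384, 0.307 and 0.271. Mal2 had 4, 0, 10 and 13 reads, Spint1 had 4, 7, 24 and 8, and Ovol1 had 2, 2, 0 and 2. A count of 0 allows up to 3 reads, or 0.169 to 0.321 CPM depending on the library, and covers counting error only. Ovol1 shared 22.0% of its exon bases with genes on the opposite strand and counting ignored strand, so its few reads cannot be assigned. For the other members at most 7.79% of exon bases were shared.

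**Figure D1:**
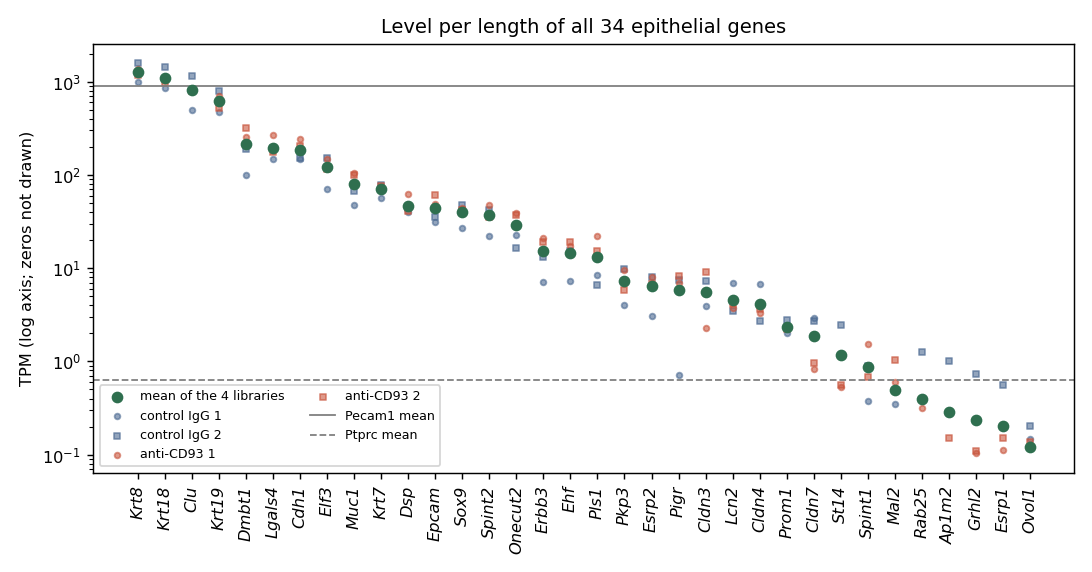
Level per length (TPM, log axis) of the 34 epithelial genes in order of their mean; green points are means of the 4 libraries, small points single libraries, and grey lines the means of Pecam1 and Ptprc (zeros are not drawn). Krt8 and Krt18 lie above Pecam1 (888 TPM), and the 6 lowest genes, from Mal2 to Ovol1, lie under Ptprc (0.635 TPM).

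Ratios of members within a library leave out its scaling. Krt8 over Krt18 was 1.16 and 1.09 with control IgG and 1.24 and 1.22 with anti-CD93, and Krt19 over Krt18 was 0.544, 0.549, 0.627 and 0.531. The first of these was higher in each anti-CD93 library than in either control library, and the second overlapped. Together Krt8, Krt18, Krt19 and Clu made up 72.6% to 81.8% of the summed TPM of the members. Relative to the summed TPM of 30 endothelial genes, the 34 members stood at 25.5% and 33.2% in the control libraries and 41.8% and 34.8% in the anti-CD93 libraries. E-cadherin RNA stood at 7.92% and 5.86% of VE-cadherin RNA (Cdh5) with control IgG and at 12.6% and 10.8% with anti-CD93. Epcam, an epithelial adhesion molecule, stood at 3.65% and 3.55% of Pecam1 with control IgG and at 5.82% and 7.01% with anti-CD93. Both adhesion ratios were also higher in each anti-CD93 library than in either control. Cdh1 and Epcam themselves lay higher in each anti-CD93 library than in either control, as did 20.1% of all tested genes, and Pecam1 lay lower. Some members were picked for lying higher, so the order of the ratios is a description and no separate result. These ratios do not say which cells made the RNA.

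Most of the member start-site windows that were found held a short letter pattern, the E-box. The members were named as epithelial genes, whose repressors bind such letters, so the share is not independent of that choice. RefSeq windows of 300 bases (GRCm38.p6, 250 before to 50 after the start) were found for 19 members. No entry was found for Krt19, Cdh1, Pkp3, Onecut2, Ehf, Grhl2, Ovol1, Sox9, Esrp1, Esrp2, Erbb3, St14, Mal2, Dmbt1 and Clu. The E-box letters CACCTG, searched on both strands, occurred in 16 of the 19 windows, or 84.2%, against 20.2% of all 32851 windows in the table. Among protein-coding windows within the middle range of the members' base composition the share was 22.5%. Of 45 other epithelial genes with an entry, 22 held the letters (48.9%), and of 15 endothelial and 8 pericyte and smooth muscle genes 0 did. In other lists 2 of 6 lymphatic endothelial genes, 1 of 7 fibroblast genes and 1 of 9 macrophage and leukocyte genes held them. So did 1 of 6 epithelial-mesenchymal transition factor genes. Of 22 pancreatic acinar genes, most of them too low here to test, 11 held them, as did 4 of 15 islet genes (26.7%) and 3 of 12 skin keratinocyte genes (25.0%). Cldn7, Spint1 and Lcn2 were the members without a match. These shares are counts of letters and show neither binding nor control. The windows of Krt8, the most abundant member, and of Epcam, Muc1 and Pls1, whose 2 anti-CD93 libraries both lay above the controls, are shown 5′ to 3′ on the gene's strand, with the E-box letters of either strand in capitals. They lie at chr15:102004293-102004592 (minus strand), chr17:87635729-87636028 (plus), chr3:89228806-89229105 (plus) and chr9:95845230-95845529 (minus), with 1, 2, 2 and 1 matches. The starts are those of RefSeq and can differ from the first base of the counted gene model.
Krt8: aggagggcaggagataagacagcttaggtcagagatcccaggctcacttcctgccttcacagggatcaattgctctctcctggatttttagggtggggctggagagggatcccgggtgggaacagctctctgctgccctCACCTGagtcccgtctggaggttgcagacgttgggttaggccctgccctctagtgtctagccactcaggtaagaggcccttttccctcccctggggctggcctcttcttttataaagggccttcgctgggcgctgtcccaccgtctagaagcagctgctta
Epcam: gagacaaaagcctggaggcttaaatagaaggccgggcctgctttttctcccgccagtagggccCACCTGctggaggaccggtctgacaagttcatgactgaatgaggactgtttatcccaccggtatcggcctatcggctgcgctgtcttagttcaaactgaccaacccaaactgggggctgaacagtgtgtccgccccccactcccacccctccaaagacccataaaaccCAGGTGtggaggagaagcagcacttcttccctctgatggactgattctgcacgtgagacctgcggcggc
Muc1: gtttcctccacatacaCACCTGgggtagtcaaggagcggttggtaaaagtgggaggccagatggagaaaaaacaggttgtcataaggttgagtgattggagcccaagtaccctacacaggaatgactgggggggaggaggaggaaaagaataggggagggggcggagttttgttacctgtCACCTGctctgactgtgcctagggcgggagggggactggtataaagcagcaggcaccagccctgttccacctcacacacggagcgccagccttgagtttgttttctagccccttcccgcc
Pls1: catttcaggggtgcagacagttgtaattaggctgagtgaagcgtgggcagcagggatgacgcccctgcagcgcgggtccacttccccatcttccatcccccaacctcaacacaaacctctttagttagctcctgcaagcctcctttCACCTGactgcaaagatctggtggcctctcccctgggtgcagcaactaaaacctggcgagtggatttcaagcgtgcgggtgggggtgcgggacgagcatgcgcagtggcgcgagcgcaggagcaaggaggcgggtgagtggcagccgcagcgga

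The windows of Ap1m2 and Spint2 held the most matches, with 4 and 3, although Ap1m2 was near the floor and Spint2 was at 36.8 TPM. The number of matches thus did not follow the level for this pair. The grainyhead letters AACCNGTT were in 3 of the 19 windows (Muc1, Prom1 and Rab25), against 2.09% of all windows, and the ETS letters CCGGAAGT were in that of Spint1 alone, against 3.89%. No match of these overlapped an E-box. From the transition factor list, levels are given here for the repressor genes Zeb1 and Snai1, the latter chosen after its values were seen. Other genes of that list, Zeb2 and Snai2 among them, are not given singly, so these values do not stand for all the repressors. Zeb1, which encodes an E-box repressor, was at 324 and 285 CPM with control IgG and 320.3 and 318 CPM with anti-CD93, with overlapping groups. Snai1, which encodes another, was at 21.2 and 35.3 CPM with control IgG and 21.8 and 26.0 CPM with anti-CD93, also overlapping. Of the 10 genes of that list 5 lay higher and 5 lower. In 3 both anti-CD93 libraries lay above both controls and in 2 both lay below, against 20.1% and 19.7% of all tested genes. With so few genes nothing is read from these counts. The list's summed level was 7117 and 10407 CPM with control IgG and 6378 and 6591 CPM with anti-CD93, below both controls. Most of it came from Vim, an intermediate filament gene of mesenchymal and endothelial cells, at 4628 and 6715 CPM and at 4138 and 3919 CPM in the same order.

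**Figure D2:**
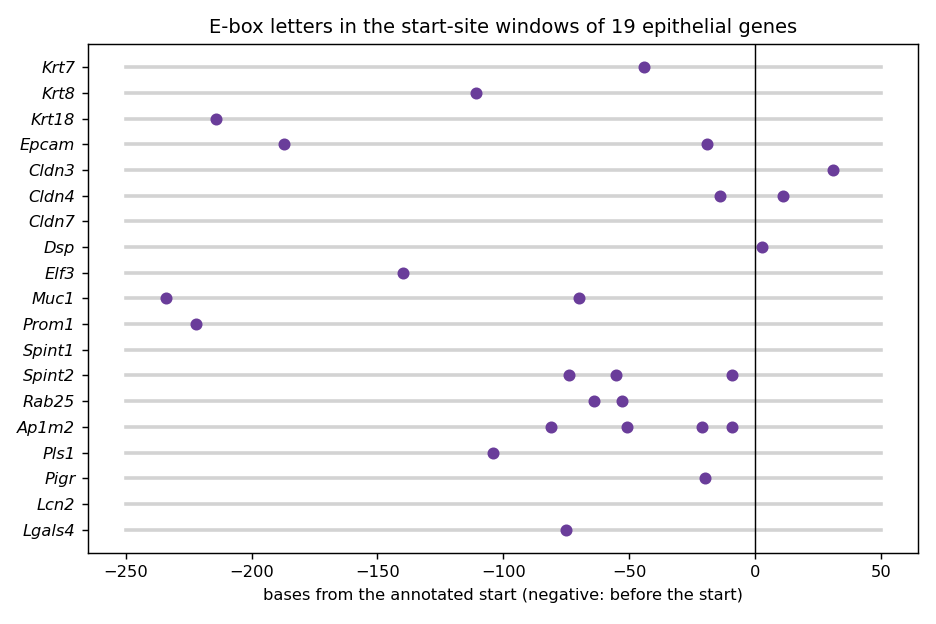
Positions of the E-box letters (points, either strand) in the 300-base windows of the 19 members with a RefSeq entry; the horizontal axis is the distance in bases from the annotated start. 16 windows hold 1 or more points, and those of Cldn7, Spint1 and Lcn2 hold none.

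Between the treatments, edgeR's quasi-likelihood test over all genes called 0 of 16945 at an adjusted p under 0.05 (0%), and so 0 of the 27 members tested. The smallest adjusted p was 0.812, and 761 genes (4.49%) had an unadjusted p under 0.05. DESeq2 called 4 genes (0.0236%) and limma-voom 0, with no member among them. The following values of members are CPM after TMM scaling, which adjusts for composition, in the order control IgG replicates 1 and 2 and then anti-CD93 replicates 1 and 2. A positive log2 fold change means a higher level with anti-CD93, and a standard error (SE) is given beside it. The SE was derived from the fold change and the statistic of the quasi-likelihood test. That test shares information on spread across genes, so the SE is not the spread between the 2 libraries of a group. In 8 of the 27 members both anti-CD93 libraries lay above both controls and in 2 both lay below, against 20.1% and 19.7% of all tested genes. Since some members were picked for lying higher, nothing is read from these counts.

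The keratins overlapped between the groups. Krt8 was at 617, 937, 855 and 712 CPM, with a log2 fold change of 0.01 (SE 0.23). Krt18 was at 389.7, 632, 508 and 429.7 CPM (log2 fold change -0.12, SE 0.24), and Krt19 was at 274, 448, 411 and 295 CPM (-0.03, SE 0.27). In all 3 the control libraries were the lowest and the highest of the 4, so the anti-CD93 libraries fell inside the control range. Krt7, a ductal type II keratin, was at 124, 167, 167 and 164 CPM (0.18, SE 0.20), with control IgG replicate 1 alone standing lower.

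Of the 7 junction genes 5 lay higher and 2 lower. The adhesion genes Cdh1 and Epcam did not overlap between the groups while the desmosome genes did. Cdh1 (chromosome 8, 106603351 to 106670246, GRCm38) was at 216, 210.4, 351 and 290.0 CPM. Its means were 213 ± 4.28 and 321 ± 43.4 CPM (SD, n = 2 each), a log2 fold change of 0.59 (SE 0.18). Epcam (chromosome 17, 87635979 to 87651129) was at 21.7, 23.4, 34.1 and 41.1 CPM, a log2 fold change of 0.74 (SE 0.21). In both genes the 2 control libraries were close together and both anti-CD93 libraries lay above them. Dsp, which encodes desmoplakin, the link from desmosomes to keratin filaments, was at 122, 129, 191 and 121 CPM, so that only anti-CD93 replicate 1 was high. Pkp3, a desmosome plaque gene, was at 4.65, 10.7, 10.8 and 6.47 CPM, with no order by group.

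The claudins, which seal tight junctions, were low and did not follow Cdh1 and Epcam. Cldn3 had 19, 26, 16 and 48 reads and Cldn4 had 48, 14, 34 and 28 reads, with overlapping groups. Cldn7 (chromosome 11, 69964779 to 69967885) had 22 and 15 reads with control IgG and 9 and 8 with anti-CD93, a log2 fold change of -1.63 (SE 0.67). Both anti-CD93 libraries, although the deeper ones, thus held fewer Cldn7 reads than either control.

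Of the transcription and splicing factor genes, 5 of 8 were tested and all 5 had a positive log2 fold change, as had 49.1% of all tested genes. Some members were picked for lying higher, so this count is a description. Without control IgG replicate 1 the values of Elf3, Sox9 and Esrp2 were negative, at -0.16, -0.094 and -0.079. Onecut2, a homeodomain factor of liver and pancreas development, was at 117, 81.9, 198 and 186 CPM. Its means were 99.4 ± 24.7 and 192 ± 8.83 CPM (SD, n = 2 each), a log2 fold change of 0.95 (SE 0.21). Ehf (chromosome 2, 103263433 to 103303278), an epithelial ETS factor, was at 12.7, 25.8, 30.2 and 32.6 CPM (0.71, SE 0.32). Both genes were without overlap, but for Ehf the gap from the higher control library to the anti-CD93 libraries was small. The related Elf3 was at 48.9, 102, 103 and 78.5 CPM. Sox9, a ductal progenitor factor, was at 35.5, 60.1, 58.3 and 54.1 CPM. Esrp2, the splicing factor, was at 4.16, 10.6, 11.1 and 8.94 CPM while its paralogue Esrp1 was near the floor. In these 3 genes control IgG replicate 1 was low and the other control library lay with or above the anti-CD93 libraries.

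Among surface receptors, proteases and inhibitors, Muc1 and Erbb3 lay higher and St14 lower with anti-CD93. Muc1 (chromosome 3, 89229057 to 89233381), a membrane mucin of ducts, was at 35.2, 48.1, 78.5 and 72.0 CPM (0.86, SE 0.21). Erbb3 (chromosome 10, 128567523 to 128589652), a receptor for neuregulins, was at 13.5, 24.1, 40.4 and 35.5 CPM (1.02, SE 0.29). St14 (chromosome 9, 31089402 to 31131853), which encodes the membrane protease matriptase, was at 2.77, 5.67, 1.30 and 1.31 CPM (-1.68, SE 0.52). None of these 3 overlapped between the groups. Of all tested genes, 20.1% lay above both controls in both anti-CD93 libraries and 19.7% below, and some members were picked for lying higher. St14 rests on few reads, at 34, 53, 23 and 18, with each mate counted singly. Spint2, which encodes an inhibitor of matriptase, was at 32.1, 59.1, 67.8 and 49.5 CPM and overlapped. Prom1, a protein of membrane protrusions, was at 4.57, 6.10, 5.14 and 4.94 CPM and overlapped as well.

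The trafficking and microvillus genes held the largest fold change among members lying higher. Pls1 (chromosome 9, 95752642 to 95845311), which bundles actin in microvilli, was at 10.4, 7.81, 27.1 and 18.4 CPM. Its means were 9.09 ± 1.80 and 22.7 ± 6.14 CPM (SD, n = 2 each), a log2 fold change of 1.32 (SE 0.29). Pigr, the receptor that carries polymeric antibodies across epithelia, was at 0.897, 9.10, 8.81 and 10.2 CPM, from 11, 85, 156 and 141 reads. Control IgG replicate 1 alone was low for Pigr, and control IgG replicate 2 lay between the 2 anti-CD93 libraries.

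Of the genes for secreted proteins, Dmbt1 lay apart by group. Dmbt1 (chromosome 7, 131032046 to 131121628), a scavenger protein of mucosal surfaces, was at 243, 444, 617 and 759.7 CPM. Its means were 344 ± 142 and 688 ± 101 CPM (SD, n = 2 each), a log2 fold change of 1.00 (SE 0.28). Clu, a secreted chaperone, was at 545, 1194, 882 and 844 CPM, with both anti-CD93 libraries inside the wide control range. Lgals4, a galectin of the gut epithelium, was at 108, 136, 194 and 126 CPM and overlapped. Lcn2, an iron-carrier binding protein released in inflammation, had 70, 26, 55 and 46 reads, highest in control IgG replicate 1.

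**Figure D3:**
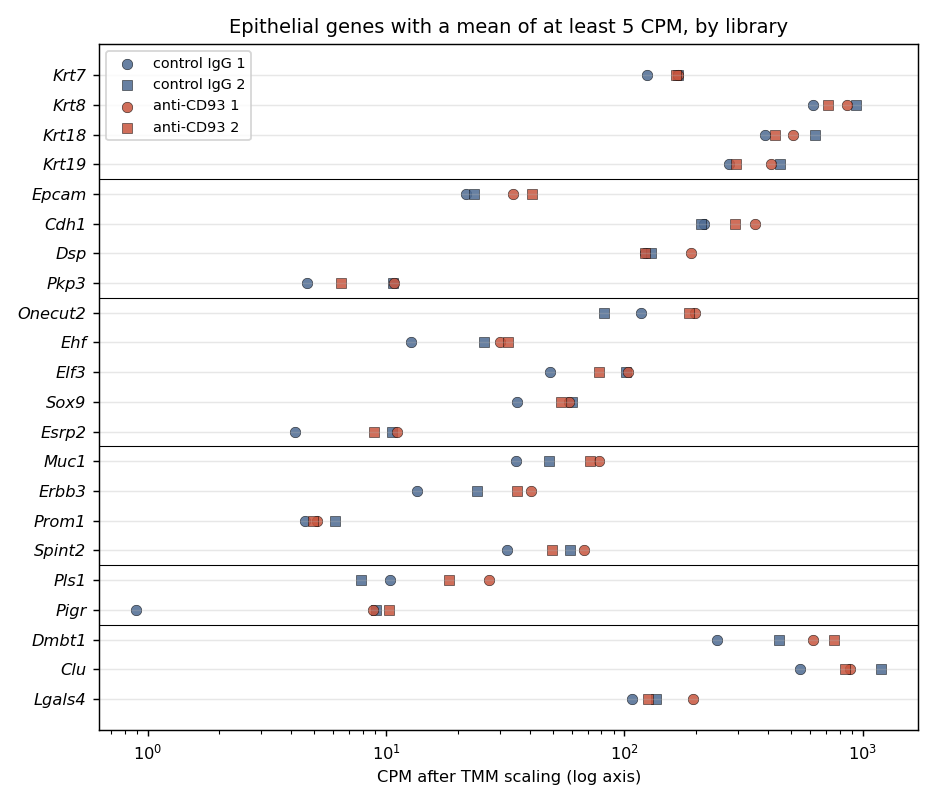
CPM after TMM scaling (log axis) in each of the 4 libraries for the 22 members with a mean of at least 5 CPM; rows are grouped by role, blue marks control IgG and red anti-CD93, circles replicate 1 and squares replicate 2. Red lies to the right of blue in Epcam, Cdh1, Onecut2, Ehf, Muc1, Erbb3, Pls1 and Dmbt1, and a single blue circle lies far left for Pigr.

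Which control library was used decided the direction for many members. Control IgG replicate 1 was the lowest of the 4 libraries for 18 of the 27 tested members, against 20.9% of all tested genes. The summed level of all 34 members was 2997 CPM in that library and 4786 CPM in the other control, while the libraries after anti-CD93 held 4860 and 4352 CPM. The anti-CD93 sums were therefore near that of control IgG replicate 2, and the log2 ratio of the group means was 0.24 with all libraries, 0.62 without control IgG replicate 2 and -0.06 without control IgG replicate 1. The median log2 fold change of the 27 tested members was 0.27, against -0.0092 for all tested genes, and 19 lay higher and 8 lower, where 49.1% of all tested genes lay higher. The members' median was 0.66 without control IgG replicate 2 and -0.0066 without control IgG replicate 1, when 13 lay higher. Picking members for lying higher with anti-CD93 also favours genes whose lowest library is a control. These counts and medians therefore describe the members, and nothing is read from their distance to all tested genes.

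The number of members past the threshold also followed the choice of libraries. Without control IgG replicate 1, when a single control stood for its group and the anti-CD93 pair alone gave the spread, 10 members were called while 26.8% of all tested genes were. Without control IgG replicate 2, where the spread likewise came from the anti-CD93 pair alone, 7 members were called, all of them higher, and 0.0767% of all tested genes. Without anti-CD93 replicate 1 no gene was called, and without anti-CD93 replicate 2 the call was 1 gene (0.0059%) and no member. With the replicate number as a block, Onecut2, Pls1 and Dmbt1 were called higher, beside 0.0826% of all tested genes. With no count filter these 3, Muc1 and Erbb3 were called higher, beside 0.144% of 33419 genes. As the members were partly chosen for this difference, these calls are listed as values.

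Over the full fit and the 4 fits that each left out a library, 12 members kept their sign and 15 changed it. The 10 members that were higher in each were Epcam, Cdh1, Onecut2, Ehf, Muc1, Erbb3, Pls1, Pigr, Dmbt1 and Lgals4, and the 2 that were lower were Cldn7 and St14. All of these but Pigr and Lgals4 did not overlap between the groups, and such genes keep their sign almost by construction. Some members were also picked for this difference, and the share of all genes keeping their sign was not computed. The list is therefore a description and no measure of stability. Some of these 12 members moved by over 1.5 times. Ehf went from 0.71 to 0.28 without control IgG replicate 1 and to 1.30 without control IgG replicate 2. Pigr went from 0.96 to 0.063 and 3.39 in the same order, and Lgals4 from 0.40 to 0.24 without control IgG replicate 1, 0.056 without anti-CD93 replicate 1 and 0.67 without anti-CD93 replicate 2. Erbb3 went from 1.02 to 0.66 without control IgG replicate 1 and Dmbt1 from 1.00 to 0.63, while St14 went from -1.68 to -1.09 without control IgG replicate 2. Epcam (0.59 to 0.87), Cdh1 (0.45 to 0.72), Onecut2 (0.72 to 1.23), Muc1 (0.65 to 1.10), Pls1 (1.02 to 1.57) and Cldn7 (-1.72 to -1.53) stayed within 1.5 times of their value in every such fit. Cldn7 rests on 22, 15, 9 and 8 reads (SE 0.67), so its narrow range is no measure of its precision.

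**Figure D4:**
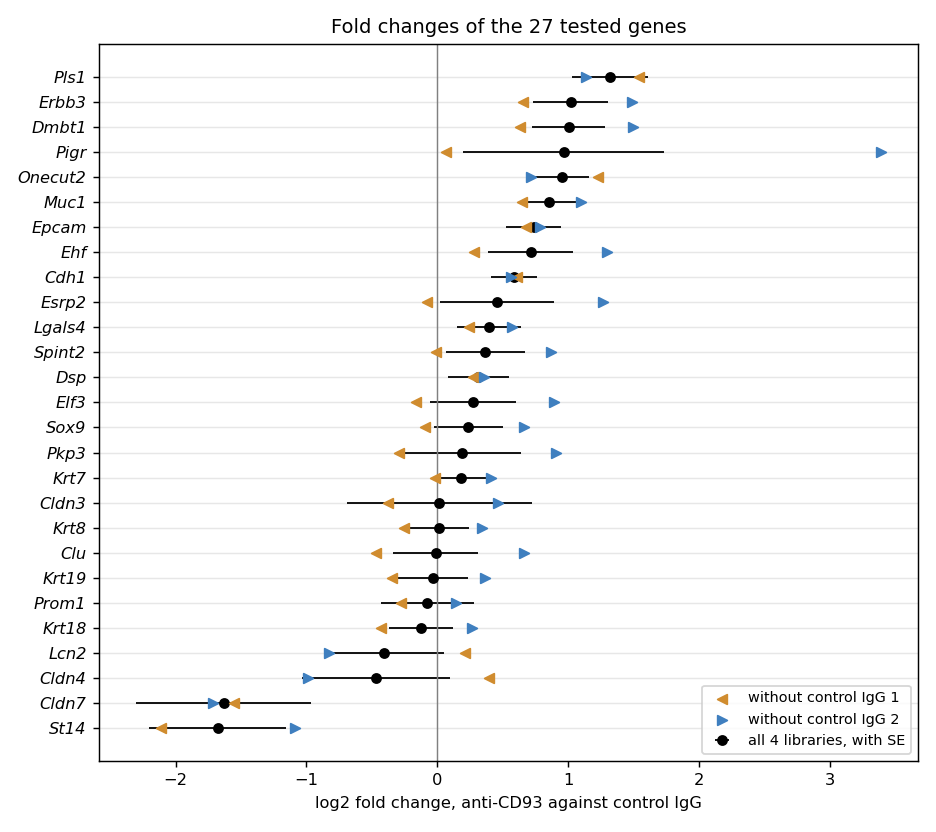
Log2 fold change of the 27 tested members, anti-CD93 against control IgG; black points with bars are all 4 libraries with the SE, and triangles the values without control IgG replicate 1 or 2. The triangles of Epcam, Cdh1 and Cldn7 lie near the point, and those of Pigr span 0.063 to 3.39. The Cldn7 values rest on few reads (SE 0.67).

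Epithelial genes that are not members lay the same way more often than not. Of 81 such genes 64 were tested, 52 lay higher and 12 lower with anti-CD93, with a median log2 fold change of 0.36, and 0 passed the test. Both anti-CD93 libraries lay above both controls in 30 of the 64 and below them in 5, against 20.1% and 19.7% of all tested genes. An unadjusted p under 0.05 was reached by 11 of the higher genes and 0 of the lower ones, against 1.99% and 2.5% of all tested genes. The list was drawn up with earlier results of these libraries known and shares their controls, so it is no separate support. By role, 13 of 16 junction and polarity genes, 2 of 3 keratins, 9 of 12 transcription factors, 15 of 18 surface and protease genes and 13 of 15 genes for secreted and other proteins lay higher.

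Named genes of that list followed both patterns. Klf5, an epithelial zinc finger factor, was at 44.0, 38.4, 76.4 and 70.2 CPM (log2 fold change 0.83, SE 0.19), and Tspan8, a tetraspanin, was at 28.1, 31.0, 47.9 and 41.6 CPM (0.60, SE 0.20). Neither overlapped between the groups. Krt20, a keratin of gut epithelium, was abundant at 336 TPM on average and was at 147, 191, 301 and 168 CPM, with overlap. Hnf4a, a factor of gut and liver epithelium, was at 37.8, 37.4, 47.4 and 41.6 CPM (0.25, SE 0.19). Against the trend, Krt23 was at 6.69, 7.07, 4.07 and 4.29 CPM (-0.72, SE 0.33) and the plaque gene Jup, which endothelial cells also use, was at 212, 259.9, 194 and 182 CPM (-0.33, SE 0.18). Control IgG replicate 1 was also the lowest library for 38 of these 64 genes.

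Endothelial genes lay the other way. Of 30 such genes 24 lay lower and 6 higher with anti-CD93, with a median log2 fold change of -0.19, and both anti-CD93 libraries lay below both controls in 14, against 19.7% of all tested genes. Their summed level was 20614 and 24075 CPM with control IgG and 19763 and 20281 CPM with anti-CD93. Control IgG replicate 2 was the highest library for 24 of the 30, and for 38.7% of all tested genes. The median was -0.06 without control IgG replicate 2. With the libraries scaled to the summed endothelial counts, the median of all tested genes moved from -0.0092 to 0.14, and that of the members from 0.27 to 0.46, with 23 of 27 higher. The share of all tested genes that lay higher moved from 49.1% to 64.9%. Krt18, Krt19, Prom1 and Clu, which lay lower under TMM scaling, lay higher under that scaling. The part of this shift in the epithelial values was not tested.

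**Figure D5:**
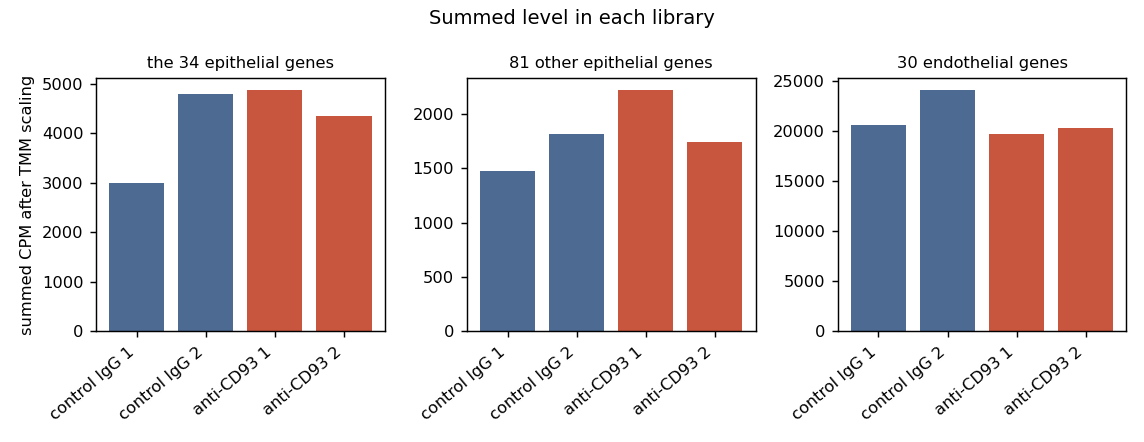
Summed CPM after TMM scaling in each library for the 34 epithelial members, 81 other epithelial genes and 30 endothelial genes; bars start at 0 and each panel has its own scale. The members' sum is lowest in control IgG replicate 1 (2997 CPM), and the endothelial sum is highest in control IgG replicate 2 (24075 CPM).

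Among markers of other pancreatic and skin cells most were too low to test. Of 27 acinar genes, which make digestive enzymes, 3 were tested and 6 had 0 reads in every library, and their summed level was 5.20 to 10.1 CPM. Their most abundant member, Cela1, was at 2.83 TPM on average. Of 19 islet genes 3 were tested and 6 had 0 reads in every library. Chga, a protein of secretory granules, was at 104 TPM on average and at 38.7, 239, 45.8 and 29.7 CPM, high in control IgG replicate 2 alone. Of 22 skin keratinocyte genes 7 were tested and 4 had 0 reads, and Sprr1a, at 58.9, 84.5, 84.6 and 55.4 CPM, made up most of their 75.6 to 118 CPM. Krt14, a basal keratin of skin, was at 10.3 TPM on average, far below Krt8 and Krt18. The part of these cells in the epithelial values was not tested.

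Stromal and lymphatic genes lay lower more often than higher, where 49.1% of all tested genes lay higher. The count for pericyte and smooth muscle genes was near that share. Their sums, and those of fibroblast genes, overlapped between the groups. Fibroblast genes were at 2637 and 3396 CPM in sum with control IgG and 2238 and 2718 CPM with anti-CD93, with 5 of 15 higher. Pericyte and smooth muscle genes were at 1010 and 879.9 CPM and at 1055 and 874 CPM, with 5 of 12 higher. Lymphatic endothelial genes were at 735 and 669 CPM and at 606 and 647 CPM, with 0 of 6 tested genes higher. Macrophage and leukocyte genes were at 47.1 and 81.5 CPM and at 84.2 and 72.8 CPM, with 7 of 14 tested genes higher. The last of these sums, like that of the epithelial members, was lowest in control IgG replicate 1, and its part in the epithelial values was not tested.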

How the data were processed

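Raw read counts per gene name were deposited. Per the file headers, the authors made them with featureCounts 2.0.1 from GENCODE vM25 (mouse build GRCm38). The recorded command has no paired-end or strand option. STAR 2.7.5b and DESeq2 1.28.1 are named in the submitters' processing notes. The other table, labelled normalized, was identical (0 of 221468 cells differed) and was left aside. Here low genes were removed (filterByExpr, minimum count 10), and the remaining 16945 were scaled by TMM and compared with edgeR 4.0.16 in R 4.3.3 (quasi-likelihood test, robust, group as the only term, Benjamini-Hochberg adjustment at 0.05). CPM refer to these scaled library sizes. TPM were computed from the deposited counts and exon lengths. DESeq2 1.42.0 and limma 3.58.1 were alternatives, and the fit was tested on simulated data. The members and all lists were chosen with earlier results of these data known. Values in every library are given for members with a mean of at least 5 CPM; other lists are named by their most abundant genes or largest changes, and Snai1, outside that rule, was chosen after its values were seen. Each group had 2 libraries, with 9364294 to 17813993 reads each, and the precision is that of a pair.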

Additional observations from a re-analysis of the deposited data

How the results depend on the processing

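With 2 libraries per group the spread within a group rests on a single pair, and members under 5 CPM rest on few reads. Genes called numbered 0 with all libraries, 0 to 4549 when a library was left out, 4 by DESeq2 on the same genes, 48 of 33419 with no count filter (0.144%) and 14 with the replicate block (0.0826%). Without control IgG replicate 1, when the other control stood alone, 10 members were among the 4549 called (26.8% of genes), 7 higher and 3 lower: Krt18, St14 and Clu. Without control IgG replicate 2, 7 members were among 13 called (0.0767%), all higher, Clu included. In both fits the spread came from the anti-CD93 pair alone, and the lone control was assumed to vary alike, so these calls are no measure of stability. With no filter 5 members were called and with the replicate block 3, all higher. The labels do not say that the replicate numbers pair the libraries. Deviations of same-numbered libraries from their group means correlated at -0.016. Control IgG replicate 2, which stood apart, weighs on that value, so it cannot exclude a pairing. Members with both anti-CD93 libraries above the controls numbered 8 of 27, where 20.1% of all tested genes did the same. They numbered 14 with scaling to the endothelial list, where 29.5% of all tested genes did. They numbered 10 without control IgG replicate 1 (42.8% of all), 21 without control IgG replicate 2 (35.9%), 10 without anti-CD93 replicate 1 (30.8%) and 14 without anti-CD93 replicate 2 (31.0%). The endothelial median was -0.19, -0.032 with scaling to its own list, and -0.32 to -0.061 with a library left out. The members' median ran from -0.0066 to 0.66 with a library left out, and the other epithelial median from 0.24 to 0.67. Counts halved, since mates were counted singly, were tried after seeing the data and called 0 genes. The cause of these dependences was not tested.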
